A study of Mus musculus with 8 samples.

Results

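Hmx1, Hmx2 and Hmx3 are the members of the mouse Hmx homeobox family measured here, and each was represented by 1 probe among the 55419 non-control probes (34652 genes) of an Agilent mouse expression array. The members were taken by the gene names in the scanner files. They had been picked because their levels in these same arrays split them into an eye pattern (Hmx1) and a hypothalamic pattern (Hmx2 and Hmx3), so their levels and differences are given as a description, with no test. Hmx genes encode homeodomain transcription factors related to the NK class. Hmx1 is known for roles in the developing eye, outer ear and cranial sensory ganglia, and its loss gives the dumbo phenotype in mice and oculoauricular syndrome in humans. Hmx2 and Hmx3 are neighbours in the genome, act together in the vestibular inner ear and the hypothalamus, and mice that lack both lose hypothalamic Ghrh and Gsx1 expression.

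Total RNA was hybridised on 8 arrays in 1 colour, with 1 array for each group. A pair of groups came from K/l-EB5 mouse embryonic stem cells (129/Ola background, male, carrying a Rax::GFP reporter) treated with a Wnt inhibitor (5 μM IWR-1-Endo) from day 3 and with 10 ng/ml activin A starting 12 h later, and sorted after 10 days in vitro into GFP-positive (activin RAX+) and GFP-negative (activin RAX-) cells. A second pair of groups came from the same cells given the inhibitor and 100 nM SAG, an agonist of Sonic hedgehog signalling, in place of activin (SAG RAX+ and SAG RAX-). The Wi control was the unsorted E14Tg2A line (129/Ola, male) given the inhibitor alone for the same time, so it differs from the sorted groups in line and in sorting as well as in the added factor. The other 3 arrays held eye, diencephalon/hypothalamus and cortex dissected from 3 Sv129s6 embryos of mixed sex at E12.5. Each array holds RNA pooled over 3 experiment sets and so shows no spread between cultures or animals.

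Levels are log2 processed signals minus the 75th percentile of the same array, so that 0 is the level of that percentile. Errors are the scanner software's reading error for the spot (SD), not a spread between samples. A gene was called higher or lower in a pair of arrays when the brighter array was well above background by the scanner's flag and the log2 difference was at least 1 in size. A dimmer array that was not well above background was raised to the lowest signal that passed there, and such folds are written "at least". Where its signal already lay above that lowest signal, the fold is as measured. This holds for Hmx2 in activin RAX- cells (21.6 against 20.8). Between 59.5% of probes (activin RAX-) and 79.3% (activin RAX+) were well above background. Among 1493 probes for olfactory and vomeronasal receptors, genes that are silent in most cells, 43.1% were well above background on the activin RAX+ array and at most 23.4% on any other array, and the part of this in any activin RAX+ value was not tested. All arrays but the Wi control shared a slide, on which both RAX+ arrays lay in column 1 and both RAX- arrays in column 2. The Wi control lay on another slide, so slide, line, sorting and treatment cannot be told apart in its comparisons.

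The labels were set against marker genes. Rax, the eye field homeobox gene whose reporter set the sort, had levels of 5.67 in activin RAX+, 2.50 in activin RAX-, 5.66 in SAG RAX+, 3.27 in SAG RAX-, -3.90 in the Wi control, 4.71 in eye, 3.33 in diencephalon/hypothalamus and -3.11 in cortex. It was 8.96-fold higher in RAX+ than in RAX- cells after activin and 5.23-fold higher after SAG, while both RAX- populations still carried it. Of the eye field and retina markers, 7 of 10 were called higher and 1 lower in eye than in diencephalon/hypothalamus. Of all detected genes, 11.2% were called higher and 8.12% lower in that pair. Nkx2-1, which patterns the ventral hypothalamus, was not well above background in eye and was at 3.28 in diencephalon/hypothalamus. Tbr1, a transcription factor gene of cortical projection neurons named here after its values were seen, was at -4.25 in eye, -1.07 in diencephalon/hypothalamus and 4.97 in cortex. In activin RAX+ cells Nkx2-1 was at 1.56.

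The probes are shown by their first 30 bases, since every Hmx value below is read from these sequences alone. Positions are those in the scanner files (mm9). The Hmx1 probe lies at chr5:35735395-35735454, the Hmx2 probe at chr7:138700012-138700071 and the Hmx3 probe at chr7:138688330-138688389, 11.7 kb from the Hmx2 probe. No gene annotation of that build was used here, so the exon or UTR is not stated.
Hmx1 probe: ttgggacaactcatcttgggcctcttttcc
Hmx2 probe: cttgaggatgggtaggggcaaaacgaggag
Hmx3 probe: atttgaggcgcttctcctcttatttttggt
Over their full 60 bases the Hmx probes shared no run longer than 7 bases with each other. The longest run shared with any other probe of the array was 16 bases for Hmx1, 17 for Hmx2 and 13 for Hmx3. The neighbours Hmx2 and Hmx3 were thus read by unlike sequences.

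Among the embryonic tissues read here, Hmx1 was high in eye alone. Its level was 4.05 in eye, against -4.01 in diencephalon/hypothalamus and -4.64 in cortex. In processed signal this was 16998 in eye, against 74.7 in diencephalon/hypothalamus and 48.0 in cortex. Eye stood apart from both other tissues. Hmx1 was 267-fold higher in eye than in diencephalon/hypothalamus (log2 difference 8.06 ± 0.21), in a pair in which 11.2% of 27945 detected genes were called higher and 8.12% lower. It was 413-fold higher in eye than in cortex (8.69 ± 0.25, or 7.38 under the alternative normexp background correction), where 12.5% were called higher and 7.78% lower. Between diencephalon/hypothalamus and cortex its difference of 0.63 ± 0.25 was not called, beside 10.3% of genes called higher and 9.04% lower.

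Hmx2 and Hmx3 ran the other way. The level of Hmx2 was -5.05 in eye, 0.44 in diencephalon/hypothalamus and -8.10 in cortex, where it was not well above background. The level of Hmx3 was -3.57 in eye, 2.17 in diencephalon/hypothalamus and -6.64 in cortex, again not well above background there. In eye, Hmx2 was 44.8-fold lower (-5.48 ± 0.22) and Hmx3 53.4-fold lower (-5.74 ± 0.21) than in diencephalon/hypothalamus. In the diencephalon/hypothalamus, Hmx2 was at least 91.2-fold and Hmx3 at least 303-fold higher than in cortex. Both were also higher in eye than in cortex, with Hmx2 at least 2.04-fold and Hmx3 at least 5.67-fold higher. Under normexp the log2 differences from cortex were smaller, at 1.12 for Hmx3 in eye (2.50 as reported) and at 4.67 for Hmx2 and 6.11 for Hmx3 in diencephalon/hypothalamus (6.51 and 8.24). The Hmx2 call in eye against cortex had a reading error of 1.31 around a log2 difference of 1.03 and was lost under 4 of the alternative settings.

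**Figure D1:**
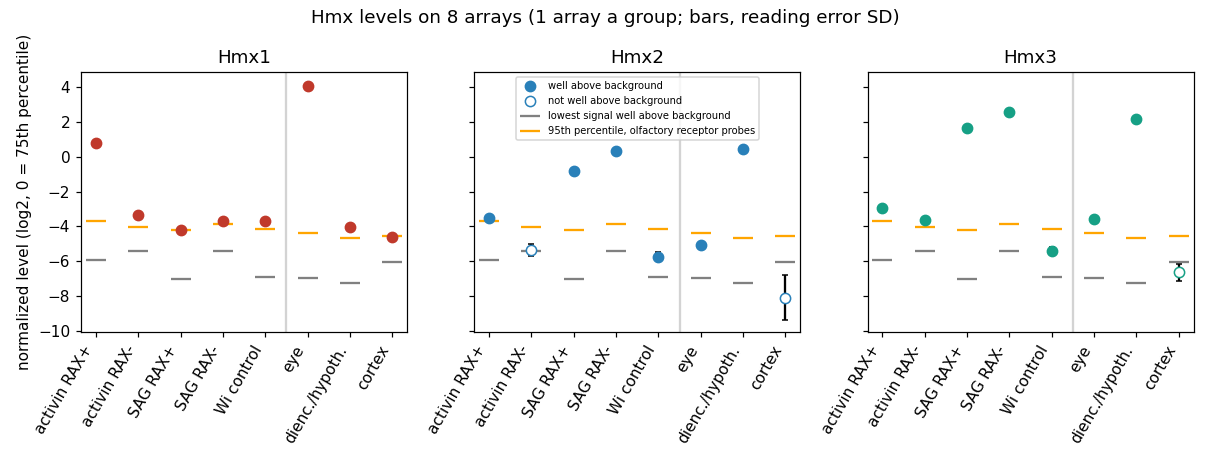
Normalized log2 level (y axis, 0 is the 75th percentile of the array) of Hmx1, Hmx2 and Hmx3 on each of 8 arrays (x axis, stem cell arrays left of the line, embryonic tissues right), with reading error bars. Hmx1 is high in activin RAX+ cells (0.81) and eye (4.05), and Hmx2 and Hmx3 in both SAG populations and diencephalon/hypothalamus. Grey ticks mark the lowest signal well above background and orange ticks the 95th percentile of olfactory receptor probes. Open points are not well above background.

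In the stem cell arrays Hmx1 was high in activin RAX+ cells alone. Its level was 0.81 in activin RAX+, -3.37 in activin RAX-, -4.22 in SAG RAX+, -3.70 in SAG RAX- and -3.70 in the Wi control. The processed signal was 1620 in activin RAX+ cells and between 32.3 (SAG RAX+) and 85.4 (activin RAX-) in the other stem cell arrays. On those arrays and in both non-eye tissues the spot was well above background, yet 2.81% to 5.36% of the olfactory receptor probes were as bright or brighter. These low levels of Hmx1 thus lie within the range of probes for silent genes. In SAG RAX+ cells and cortex Hmx1 lay under the 95th percentile of the olfactory probes, and on the other arrays with a low level it lay above it. In activin RAX+ cells 0.134% of the olfactory probes reached the level of Hmx1, and in eye none of the 1493 did. In bulk RNA such as this, fewer cells of a type and less RNA per cell cannot be told apart.

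Hmx2 and Hmx3 were high in both SAG populations. The level of Hmx2 was -3.50 in activin RAX+, -5.35 in activin RAX- (not well above background), -0.80 in SAG RAX+, 0.31 in SAG RAX- and -5.74 in the Wi control. The level of Hmx3 was -2.95 in activin RAX+, -3.62 in activin RAX-, 1.67 in SAG RAX+, 2.54 in SAG RAX- and -5.43 in the Wi control. For both genes the SAG RAX- array was brighter than the SAG RAX+ array, and the Wi control was the dimmest stem cell array. Of the olfactory probes, 3.75% were as bright as Hmx2 or brighter in activin RAX+, 11.4% in activin RAX- and 8.98% in eye. For Hmx3 these shares were 2.01%, 3.28% and 2.81%. These low levels of Hmx2 and Hmx3 thus lie within the range of probes for silent genes. Of them, Hmx2 in activin RAX- cells and in eye lay under the 95th percentile of the olfactory probes. Hmx2 in activin RAX+ cells and Hmx3 in activin RAX+ cells, activin RAX- cells and eye lay above it.

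The comparison of activin with SAG within the RAX+ gate asked which factor favours which of the genes among Rax-expressing progenitors. Hmx1 was 32.6-fold higher in activin RAX+ than in SAG RAX+ cells (log2 difference 5.03 ± 0.23), the rank 32 from the top of 29090 detected genes. Hmx2 was 6.54-fold lower (-2.71 ± 0.21), rank 100 from the bottom. Hmx3 was 24.6-fold lower (-4.62 ± 0.21), rank 9 from the bottom. In this pair 18.7% of genes were called higher and 6.2% lower, and the median difference of all detected genes was 0.29. Because the members were chosen on this contrast, nothing is read from their count against these shares. The level of Rax itself differed by 0.01 ± 0.20 between these populations and was not called.

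Within the RAX- gate the split took another form. Hmx1 differed by 0.33 ± 0.25 between activin RAX- and SAG RAX- cells and was not called. Hmx2 was 50.6-fold lower in activin RAX- cells (-5.66 ± 0.36), as measured on a spot not well above background there. That log2 difference was -3.71 under normexp and -4.61 in the authors' value table. Hmx3 was 71.5-fold lower (-6.16 ± 0.22, or -5.17 under normexp), and only 1 of the 25531 detected genes had a lower difference. In this pair 13% of genes were called higher and 14.8% lower. The factor difference in Hmx2 and Hmx3 was thus found in both gates, whereas that of Hmx1 passed the rule of size in the RAX+ gate. Whether the gates differ was not tested.

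Across the sort itself, activin RAX+ cells carried 18.0-fold more Hmx1 than activin RAX- cells (4.17 ± 0.23), the rank 5 from the top of 28937 genes and above the reporter gene Rax at rank 27. Under normexp that difference was 3.44. Hmx2 was 3.59-fold higher (1.85 ± 0.36), as measured against an activin RAX- spot not well above background. That call was lost under normexp background correction (0.63) and in the authors' value table (0.95). Hmx3 differed by 0.67 ± 0.23 and was not called. In this pair 10.6% of genes were called higher and 6.1% lower. After SAG, Hmx2 was 2.15-fold lower in SAG RAX+ than in SAG RAX- cells (-1.11 ± 0.20). This call was lost under normexp (-0.92), with median scaling (-0.97) and in the authors' value table (-0.99). Hmx3 (-0.87 ± 0.20) and Hmx1 (-0.53 ± 0.25) were not called. There 4.18% of genes were called higher and 10.6% lower. Each gate sat in its own column of the slide, so gate and column cannot be told apart.

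**Figure D2:**
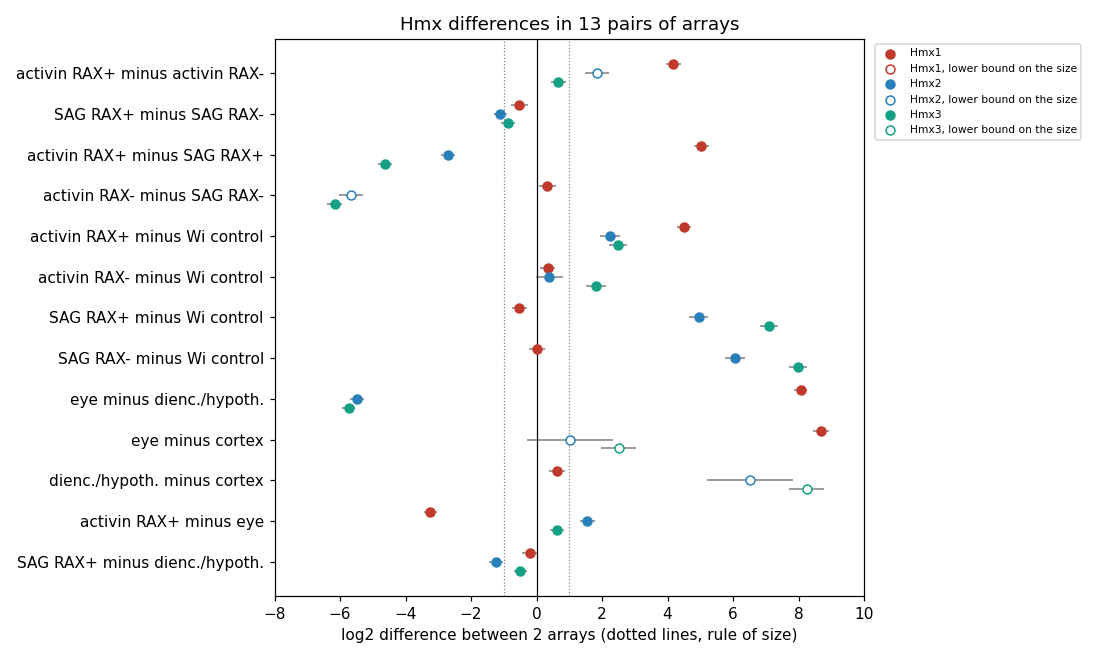
Log2 difference (x axis) of Hmx1, Hmx2 and Hmx3 in 13 pairs of arrays (y axis, first group minus second), with the reading error as SD and dotted lines at the rule of size. Open points have an array not well above background and are lower bounds on the size, except those of Hmx2 with activin RAX-, which are as measured. Hmx1 differs by 8.06 in eye minus diencephalon/hypothalamus and 8.69 in eye minus cortex, and Hmx3 by at least 8.24 in diencephalon/hypothalamus minus cortex.

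The Wi control had a low Rax level, 758-fold below that of activin RAX+ cells. In activin RAX+ cells Hmx1 was 22.7-fold, Hmx2 4.71-fold and Hmx3 5.59-fold higher than in the Wi control, where 30% of genes were called higher and 13.4% lower. Under normexp Hmx1 differed by 3.34 (4.51 as reported), and the Hmx2 and Hmx3 calls were lost, with log2 differences of 0.56 and 0.85. The median level of the olfactory probes was also higher in activin RAX+ (-6.05) than in the Wi control (-8.15). Its part in these differences was not tested. In activin RAX- cells Hmx3 was 3.52-fold higher (0.54 and not called under normexp), Hmx1 differed by 0.34 ± 0.24, and Hmx2 was not well above background on the brighter array, beside 18.9% of genes called higher and 17% lower.

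The SAG populations differed from the Wi control in Hmx2 and Hmx3. In SAG RAX+ cells Hmx2 was 30.8-fold and Hmx3 138-fold higher than in the Wi control, while Hmx1 differed by -0.52 ± 0.24 and was not called. There 20.9% of genes were called higher and 19.2% lower. In SAG RAX- cells Hmx2 was 66.4-fold and Hmx3 252-fold higher, and Hmx3 ranked 3 from the top of 26518 genes. Under normexp the log2 differences were smaller, at 2.72 for Hmx2 and 4.90 for Hmx3 in SAG RAX+ cells (4.95 and 7.11 as reported) and 3.64 and 5.71 in SAG RAX- cells (6.05 and 7.97). The Wi levels of Hmx2 and Hmx3 were low, with 14% and 11.3% of the olfactory probes as bright or brighter there. Hmx1 differed by 0.00 ± 0.24, beside 17.5% of genes called higher and 14.2% lower. The level of Hmx1 in SAG RAX- cells and in the Wi control was the same to the second decimal (-3.70).

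Each RAX+ population was also set against a tissue of the embryo. Hmx1 was 9.48-fold lower in activin RAX+ cells than in eye (-3.25 ± 0.20), Hmx2 was 2.91-fold higher (1.54 ± 0.23) and Hmx3 differed by 0.62 ± 0.21 without a call. There 23.5% of genes were called higher and 9.71% lower. Hmx2 was 2.35-fold lower in SAG RAX+ cells than in diencephalon/hypothalamus (-1.23 ± 0.20), whereas Hmx3 (-0.50 ± 0.20) and Hmx1 (-0.21 ± 0.23) were not called, beside 18.8% of genes called higher and 12.8% lower. The Hmx2 excess of activin RAX+ cells over eye was 0.72 under normexp and 0.78 in the authors' value table, and not called in either. Both Hmx2 levels lie within the range of the olfactory probes, whose median was also higher in activin RAX+ (-6.05) than in eye (-8.19). The part of this in the Hmx2 and Hmx3 differences was not tested.

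Over the 13 pairs, Hmx1 was called higher in 5 and lower in 1, Hmx2 higher in 7 and lower in 5, and Hmx3 higher in 6 and lower in 3. Depending on the pair, 4.18% to 30% of all detected genes were called higher and 6.1% to 19.2% lower. The members were chosen on these data and the pairs reuse the same 8 arrays, so nothing is read from these counts. Some of the Hmx2 and Hmx3 calls were lost under other settings. The order of levels had few clear steps, where clear means a gap of more than 2 reading errors. Reading errors hold no spread between cultures or animals, so they do not settle the order of the populations. For Hmx1 the steps from eye to activin RAX+ (3.25) and from activin RAX+ to activin RAX- (4.17) exceeded 2 reading errors, and no step among the other 6 arrays did. For Hmx2 the top was diencephalon/hypothalamus and SAG RAX-, 0.13 apart and not separable, followed by SAG RAX+, activin RAX+ and eye, each a clear step lower. Eye, activin RAX-, the Wi control and cortex followed for Hmx2 with no clear step between neighbours. For Hmx3 SAG RAX- and diencephalon/hypothalamus were 0.37 apart and not separable, and eye and activin RAX- were 0.05 apart. The other Hmx3 neighbours were separated by more than 2 reading errors, with the widest step between SAG RAX+ and activin RAX+ (4.62). The exception is that the step from the Wi control to cortex has no settled size because cortex was not well above background. The Hmx3 step from activin RAX+ to eye (0.62 ± 0.21) fell to 0.33 under another setting, less than 2 reading errors. The Hmx3 step from activin RAX- to the Wi control (1.82 ± 0.30) fell to 0.54 under normexp, also less than 2 reading errors.

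Some genes next to Hmx1 were higher in eye, and none of those next to Hmx2 and Hmx3 was called in eye against diencephalon/hypothalamus. Within 250 kb of the Hmx1 probe lay 29 other probes of 14 genes or unnamed regions, of which 26 were detected in eye or diencephalon/hypothalamus, and 5 were called higher in eye and none lower, beside 11.2% and 8.12% of all genes. A930033C23Rik, a RIKEN transcript probed 4.13 kb away on the opposite strand, was at -1.65 in eye, against -9.15 (not well above background) in diencephalon/hypothalamus, a log2 difference of at least 5.63. E130018O15Rik, probed at -13.4 kb and also on the opposite strand, was at -3.33 in eye, against -7.06 (not well above background) in diencephalon/hypothalamus, a measured difference of 3.74. The other 3 were Adra2c, an alpha-2 adrenergic receptor gene (2.97, at -111 kb), Cpz, a carboxypeptidase gene (2.62, at 110 kb), and 4930478P22Rik (1.51, at -25.1 kb). Of the same 29 probes, 28 were detected in activin RAX+ or SAG RAX+ cells, and 6 were called higher and 1 lower in activin RAX+ cells, a share near the 18.7% and 6.2% of all genes. A930033C23Rik was among these, at -4.85 in activin RAX+ and not well above background in SAG RAX+ (at least 2.17). E130018O15Rik differed by 0.51 and was not called.

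Around Hmx3, 14 other probes of 9 genes lay within 250 kb besides that of Hmx2. None of the 11 detected was called in eye against diencephalon/hypothalamus, and their differences ran between -0.28 and 0.61. Bub3, a spindle checkpoint gene probed 12.2 kb from the Hmx2 probe, differed by -0.15 in that pair and by 0.44 in activin RAX+ against SAG RAX+ cells. In the second pair 3 of 13 detected probes were called higher (Pstk at -171 kb, Cuzd1 at -235 kb and BB114814 at -239 kb) and none lower, again near those shares. The fall of Hmx2 and Hmx3 in eye and in activin RAX+ cells was not seen at the other probes of this window.

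**Figure D3:**
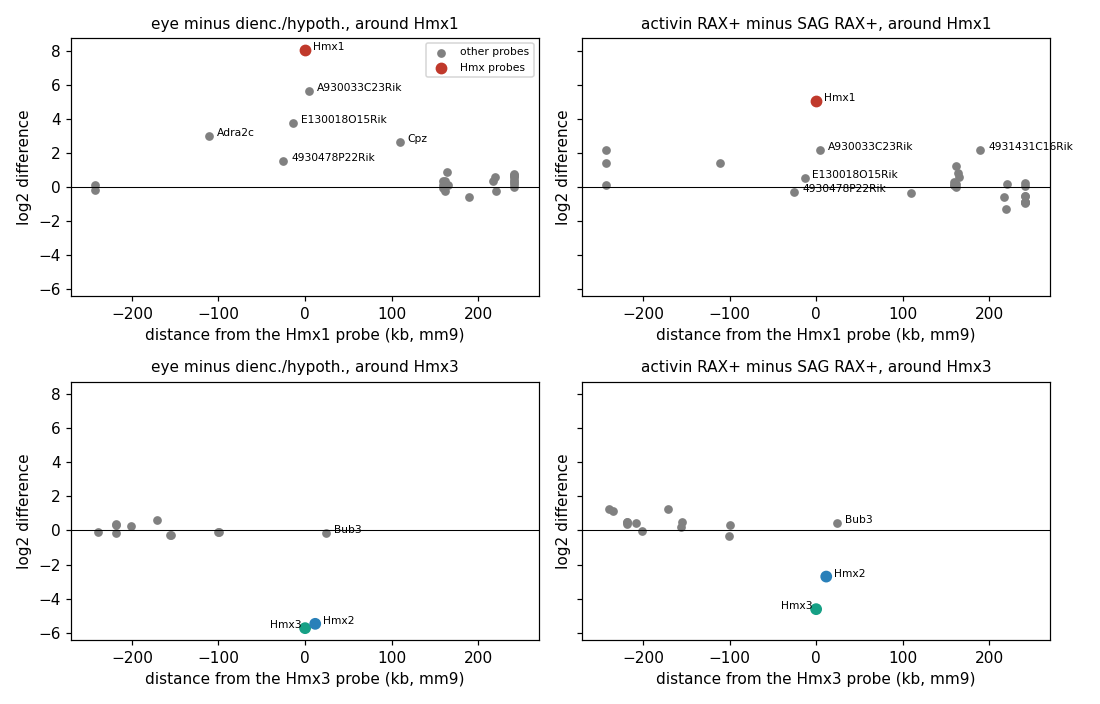
Log2 difference (y axis) of probes within 250 kb of the Hmx1 probe (top) and the Hmx3 probe (bottom) by distance in kb (x axis), in activin RAX+ minus SAG RAX+ (right) and eye minus diencephalon/hypothalamus (left). A930033C23Rik (at least 5.63) and E130018O15Rik (3.74) lie with Hmx1 in eye, while Bub3 stays at -0.15 beside Hmx2 and Hmx3.

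Over the 8 arrays Hmx2 and Hmx3 had nearly the same profile, and Hmx1 neither. Among 12167 genes that were well above background on at least 2 arrays and spanned at least 2 log2 units, Hmx2 was the gene most like Hmx3 (Pearson correlation 0.98), and Hmx3 was the second most like Hmx2. The correlation of Hmx1 with Hmx2 was -0.26 and with Hmx3 -0.23. These correlations describe 8 arrays, of which 7 share a slide, and carry no p.

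The genes most like Hmx1 were Crybb1 (0.97), Clec18a (0.97), Cryge (0.97), Ppp1r36 (0.97) and Mip (0.96). Crybb1 and Cryge encode lens crystallins and Mip the lens fibre water channel, whereas Clec18a is a lectin gene. By Spearman's method, which weighs the eye and activin RAX+ peaks less, Crybb1 and Cryge fell to 0.71 (rank 433) and Mip to 0.74 (rank 390), while Clec18a was at 0.93 and Ppp1r36 at 0.98. Crybb1 was at -0.43 in activin RAX+, -4.40 in activin RAX-, not well above background in SAG RAX+, -5.11 in SAG RAX-, 4.93 in eye and -4.12 in diencephalon/hypothalamus. All 5 profiles peaked in eye with activin RAX+ next, and 41 genes correlated above 0.9 with Hmx1. The genes most like Hmx3 after Hmx2 were the predicted genes Gm9997 (0.97) and Gm10421 (0.97) and probe sets that the array names only by region, on chromosome 7 (69008096 to 69070309, 0.97) and chromosome 14 (55671783 to 55680316, 0.96, mm9). The same 4 were, with Hmx3, those most like Hmx2, and the chromosome 14 region led that list at 0.99. Part of this rests on the floor for dim arrays. With measured levels Gm9997 had a correlation of 0.75 with Hmx3 (rank 381) and the chromosome 7 region 0.81 (rank 187), whereas Gm10421 had 0.90 and the chromosome 14 region 0.96.

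**Figure D4:**
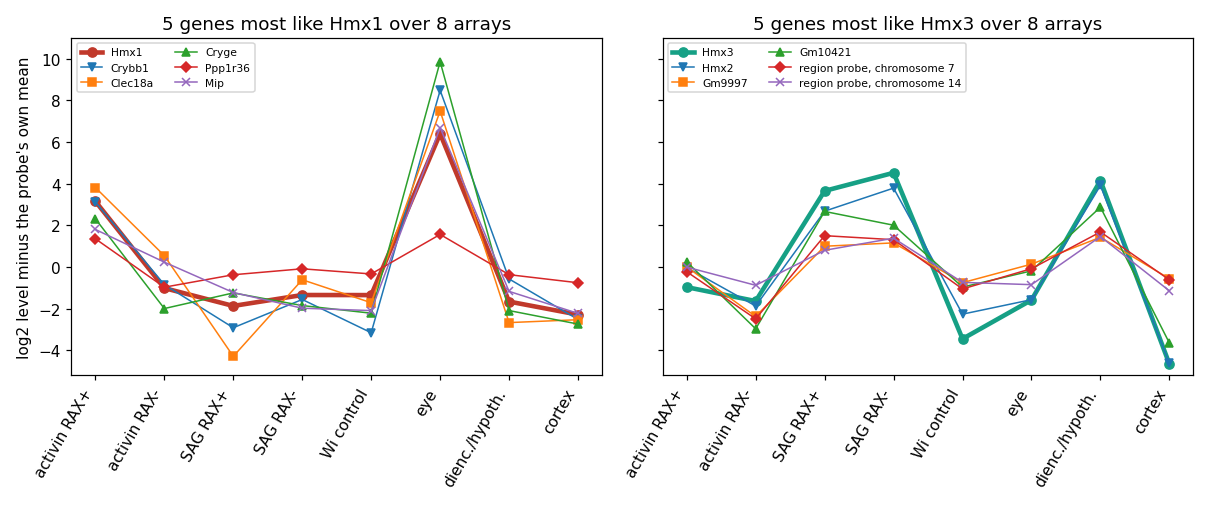
Log2 level minus the probe's own mean over 8 arrays (y axis) for Hmx1 (left) and Hmx3 (right) with the 5 genes most like each, by array (x axis). Levels are drawn as measured, also where they are not well above background. The left profiles share a peak in eye and the right ones are high in both SAG populations and diencephalon/hypothalamus, with Hmx2 nearly on Hmx3 (correlation 0.98).

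Markers of other cell types followed Hmx1 only in part. Of 8 lens markers, all were well above background in activin RAX+ cells and in eye, and their summed level was 3.45 in activin RAX+, 1.45 in activin RAX-, 1.88 in SAG RAX+, 0.53 in SAG RAX-, 1.09 in the Wi control, 8.82 in eye, 1.15 in diencephalon/hypothalamus and -0.05 in cortex. In the activin and SAG populations except SAG RAX-, the brightest of the 8 was Maf, a transcription factor gene, at 3.22 in activin RAX+ and 1.40 in SAG RAX+ cells, and the median level was -2.64 and -4.42 there, against 2.46 in eye. Cryaa, the major alpha crystallin of lens, was at 8.26 in eye, -3.39 in activin RAX+ cells and -1.19 in activin RAX- cells. In eye 7 of 8 lens markers were called higher than in diencephalon/hypothalamus, beside 11.2% of all detected genes. In activin RAX+ cells 5 were called higher and 2 lower than in SAG RAX+ cells, beside 18.7% and 6.2%. Crybb1 was 65.6-fold higher there, measured against a SAG RAX+ spot not well above background. Across the activin sort 3 of the 8 were called higher and 1 lower in RAX+ cells, beside 10.6% and 6.1%. Periocular and craniofacial mesenchyme markers were called higher in eye for 6 of 10, with a summed level of 6.17 in eye and 5.57 in diencephalon/hypothalamus. Their summed level was 2.80 in activin RAX+ cells, below the 4.40 of activin RAX- cells. Across that sort 6 of the 10 were called lower in RAX+ cells and none higher. Of the 10 sensory and sympathetic neuron markers, 2 were called higher and 2 lower in eye than in diencephalon/hypothalamus. The part of these cells in the Hmx1 levels was not tested.

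Hypothalamic markers moved with Hmx2 and Hmx3 in the tissues. Of 10 such markers, 3 were well above background in eye and all 10 in diencephalon/hypothalamus, and their summed level was 3.16 in eye and 5.19 in diencephalon/hypothalamus. In the stem cell arrays the sum was 5.07 in activin RAX+, 3.39 in activin RAX-, 6.21 in SAG RAX+, 5.77 in SAG RAX- and 2.44 in the Wi control. In activin RAX+ cells the brightest were Tbx3 (4.10) and Fezf1 (3.49), and the median level of the 10 markers was -1.62 in activin RAX+ cells, 1.35 in SAG RAX+ cells and 1.52 in diencephalon/hypothalamus. Their part in the Hmx2 and Hmx3 levels was not tested.

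Genes of growth hormone releasing hormone and arcuate neurons, in whose development Hmx2 and Hmx3 act, were mostly lower where Hmx2 and Hmx3 were lower in the tissues and in the RAX- gate, and were mixed in the RAX+ gate. Of 14 genes, 12 were called lower and 1 higher in eye than in diencephalon/hypothalamus. Of all detected genes, 8.12% were called lower and 11.2% higher there. The median log2 difference of the list was -3.02 beside 0.19 for all detected genes. Nkx2-1 was at least 1243-fold, Gsx1 235-fold, Otp at least 20.1-fold and Dlx1 10.1-fold lower. Ghrh, the releasing hormone, was 9.84-fold lower, and the neuropeptide gene Gal was the exception at 3.38-fold higher.

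In activin RAX+ against SAG RAX+ cells, 5 of the 14 were called lower and 3 higher, beside 6.2% and 18.7% of all detected genes. The median was -0.09 beside 0.29 for all detected genes. Nkx2-1 was 10.8-fold, Nr5a1 (a nuclear receptor gene of the ventromedial hypothalamus) 8.66-fold and Isl1 (a LIM homeobox gene) 5.24-fold lower, and Gal was 9.61-fold higher. Gsx1 was not called: it was at 1.18 in activin RAX+ and 1.51 in SAG RAX+ cells (-0.33). Ghrh was at -4.13 in activin RAX+ and -2.74 in SAG RAX+ cells, 2.63-fold lower. Its activin RAX+ level lay under the 95th percentile of the olfactory probes on that array (-3.67). In the RAX- gate 11 of the 14 were called lower and 1 higher in activin than in SAG cells, beside 14.8% and 13% of all detected genes. The median in that gate was -2.31 beside 0.05 for all detected genes. There Ghrh was 6.65-fold and Gsx1 6.79-fold lower.

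Genes that mark the nasal and temporal sides of the retina, a division in which Hmx1 acts on the nasal side, did not move together. Foxd1, a temporal gene, differed by -0.62 between activin RAX+ and SAG RAX+ cells and was not called. The Eph receptor gene Epha4 was 9.57-fold higher and the ephrin ligand gene Efna5 2.99-fold lower in activin RAX+ cells. In eye against diencephalon/hypothalamus the Eph receptor gene Epha6 was the only gene of the list called, 4.81-fold higher. Of all detected genes, 11.2% were called higher and 8.12% lower in that pair.

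**Figure D5:**
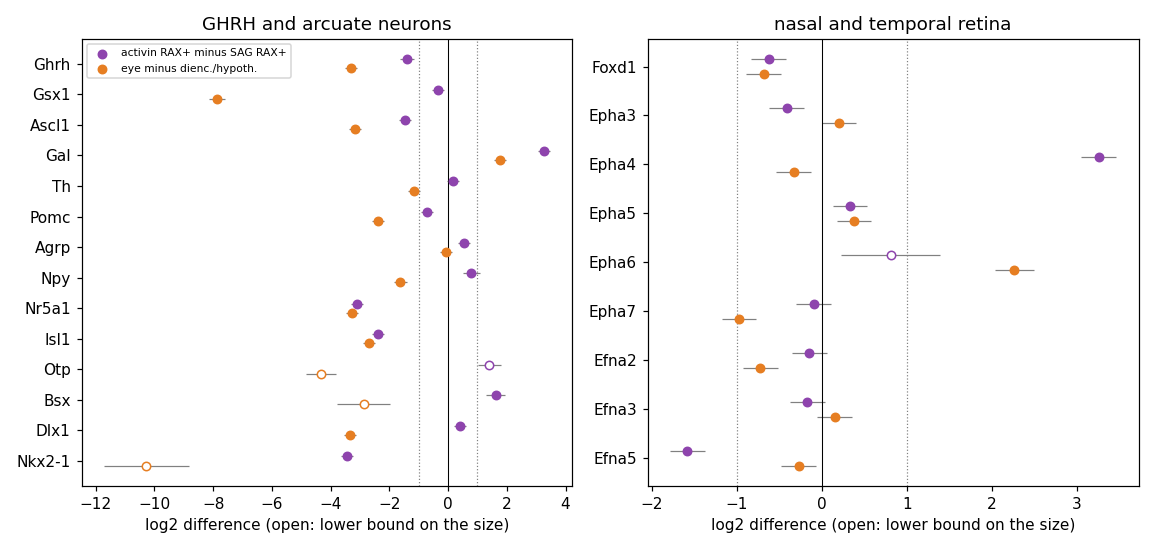
Log2 difference (x axis) of genes of GHRH and arcuate neurons (left) and of 9 genes of the nasal and temporal retina (right), in activin RAX+ minus SAG RAX+ cells and in eye minus diencephalon/hypothalamus, with reading error as SD. Gsx1 is 235-fold lower in eye but near 0 between the RAX+ populations (-0.33).

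Inner ear genes and the NK homeobox relatives were mixed. Of 11 inner ear genes, 9 were detected in the RAX+ pair, where 5 were called higher and 1 lower in activin than in SAG cells. The log2 differences were at least 3.90 for Tbx1 and 2.51 for Pax2. All 11 were detected in the tissue pair, where 4 were called higher and 3 lower in eye than in diencephalon/hypothalamus. The median differences were 1.21 and 0.41, beside 0.29 and 0.19 for all detected genes. Of the 16 NK relatives, 14 were detected in each of these pairs. Of these, 2 were called higher and 2 lower in activin RAX+ than in SAG RAX+ cells, and 3 higher and 4 lower in eye than in diencephalon/hypothalamus. Their median differences were 0.25 and -0.08. Over all detected genes 18.7% were called higher and 6.2% lower in the first pair, and 11.2% and 8.12% in the second. Tlx2, a homeobox gene of neural crest derivatives, had the largest of these tissue differences (15.3-fold higher in eye). The Nkx2 genes stand in the hypothalamic list and are not among these 16.

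Promoter windows are shown because Hmx2 and Hmx3 moved together from neighbouring starts. They are the 250 bases before each start in RefSeq (GRCm38.p6, plus strand) for which the promoter table used here has a window, 1 each for Hmx1 and Hmx3 and 2 for Hmx2. The annotated spans of Hmx1 and Hmx3 begin upstream of the starts shown, at 35388780 and 131541532. They lie at chr5:35388611-35388860 (Hmx1), chr7:131542713-131542962 (Hmx3), chr7:131548507-131548756 (Hmx2, first start) and chr7:131554043-131554292 (Hmx2, second start). Capitals mark GC boxes (GGGCGG) and the TATA box (TATAAA), searched on both strands.
Hmx1 promoter: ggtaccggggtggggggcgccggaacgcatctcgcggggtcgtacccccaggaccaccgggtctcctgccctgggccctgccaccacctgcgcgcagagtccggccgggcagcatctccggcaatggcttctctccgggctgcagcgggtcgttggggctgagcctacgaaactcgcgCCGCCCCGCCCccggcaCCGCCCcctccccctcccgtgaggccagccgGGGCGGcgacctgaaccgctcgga
Hmx3 promoter: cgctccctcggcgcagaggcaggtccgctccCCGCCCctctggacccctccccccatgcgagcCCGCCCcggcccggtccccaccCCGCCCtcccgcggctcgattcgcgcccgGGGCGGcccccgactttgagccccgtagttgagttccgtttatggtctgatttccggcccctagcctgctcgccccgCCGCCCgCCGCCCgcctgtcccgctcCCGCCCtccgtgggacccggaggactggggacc
Hmx2 promoter, first start: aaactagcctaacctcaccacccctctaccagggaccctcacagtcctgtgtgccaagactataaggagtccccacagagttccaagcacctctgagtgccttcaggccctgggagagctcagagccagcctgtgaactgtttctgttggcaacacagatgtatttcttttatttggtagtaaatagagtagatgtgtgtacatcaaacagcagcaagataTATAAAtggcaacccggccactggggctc
Hmx2 promoter, second start: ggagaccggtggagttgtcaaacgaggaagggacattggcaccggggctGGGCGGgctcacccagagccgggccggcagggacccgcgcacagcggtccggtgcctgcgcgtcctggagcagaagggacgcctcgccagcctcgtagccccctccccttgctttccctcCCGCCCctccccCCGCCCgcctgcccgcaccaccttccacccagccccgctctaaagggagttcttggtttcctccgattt
The GC content was 75.6% for Hmx1, 76.8% for Hmx3, 49.6% for the first and 70.0% for the second Hmx2 start, beside a median of 52.4% over 32851 windows. GC boxes numbered 4 in Hmx1, 7 in Hmx3, none at the first and 3 at the second Hmx2 start, and 32.7% of all windows held at least 1. The first Hmx2 start held 1 TATA box, as did 12.4% of all windows, and the other windows of the family held none. Neither the letters CAAGTG (the core bound by NK class factors) nor GACCACCCA (the GLI consensus of hedgehog signalling) were found in the 4 windows. Of all windows, 11.6% held the NK core and 0.225% the GLI letters. These matches describe the letters of the windows and say nothing of binding.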

How the data were processed

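Each array was labelled from 50 ng of RNA and read in 1 colour. The deposited scanner files hold, per the file headers, background-subtracted processed intensity for 62976 spots, made with Agilent Feature Extraction 10.7.3.1 and mm9 positions, whereas the submitters' processing notes name version 9.1 and limma. The authors' value table holds log2 values (column medians 6.36 to 6.40), with scale and normalization beyond that unstated. Control and outlier spots were left out, spots of a probe were averaged, and log2 intensity minus the 75th percentile of the array was used. For genes with several probes, the one brightest on average was used. Hmx members had 1 probe each. Of the probes, 27927 were named through RefSeq and 27492 by the file.

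With 1 array a group there was no test. The number of arrays limits the precision. The members, the lists and the motifs were chosen with earlier results of these data known. Named were the members, Rax, the 5 genes most like each member, genes within 250 kb, and up to 4 called genes of a list with the largest differences, plus defining markers. The call rule was tested on simulated data for eye minus diencephalon/hypothalamus (34652 genes): it recovered 98.0% of changes of 1.5 and 100.0% of changes of 3 on the log2 scale, and called 0.035% of unchanged genes. The simulation held reading error alone, with no spread between cultures or animals, so that share is no false call rate for the real pairs. Alternatives were median scaling, the percentile over probes well above background on all arrays, quantile normalization, normexp (offset 50) with limma 3.58.1, the authors' table, no floor, and both arrays well above background. Python 3.11.15, numpy 2.4.6, pandas 2.3.3 and R 4.3.3 were used. Some genes of the marker lists count towards the list totals and are not reported here by name.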

Additional observations from a re-analysis of the deposited data

Results flagged for a closer look

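The measured difference across the Rax::GFP sort had opposite signs after activin and after SAG, and Hmx2 was the one member called in both pairs. In activin RAX+ minus activin RAX- cells it was 4.17 for Hmx1, 1.85 for Hmx2 (not well above background in activin RAX-) and 0.67 for Hmx3, on the log2 scale. In SAG RAX+ minus SAG RAX- cells it was -0.53 for Hmx1, -1.11 for Hmx2 and -0.87 for Hmx3. Hmx1 after SAG and Hmx3 in both pairs were not called, and both Hmx2 calls were lost under some alternative settings. Each value rests on 1 array against 1, and the difference between the treatments was not tested.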

How the results depend on the processing

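No Hmx difference that was called changed sign under any alternative, and the calls of the activin RAX+ minus SAG RAX+ and eye minus diencephalon/hypothalamus pairs were kept for all 3 genes under all 8 alternatives. The mean of all probes, no floor and both arrays well above background could not change the values of these pairs. Each member has 1 probe, and all 3 genes were well above background on the arrays of both pairs. Sizes moved by more than the reading error in these cases. Under normexp, activin RAX+ minus SAG RAX+ gave 3.50 for Hmx1, -2.15 for Hmx2 and -4.05 for Hmx3, and eye minus diencephalon/hypothalamus gave 7.09, -4.04 and -5.00. In the authors' table the first pair gave 4.25 for Hmx1 and -4.27 for Hmx3, and the second 7.60, -4.66 and -5.52. Quantile normalization gave -6.00 for Hmx3 in the second pair. Over all 13 pairs 223 values stayed within the reading error and 82 did not, and 14 changed call, all of Hmx2 or Hmx3. The 223 include values that their setting could not change. Besides those given with the results, the Hmx2 difference of activin RAX+ minus activin RAX- was 0.63 under normexp and 0.95 in the authors' table, and that of SAG RAX+ minus SAG RAX- was between -1.14 and -0.92. Hmx2 in eye minus cortex was called under 3 of 7 alternatives, between 0.39 and 3.05. The correlation of Hmx2 with Hmx3 stayed at 0.98 by Spearman's method, with measured levels and without the Wi control, while that of Hmx1 with Hmx2 was 0.07 by Spearman's method. Counts over all genes depended more on the setting. Activin RAX+ minus SAG RAX+ had 5445 genes higher and 1804 lower (75.1% higher), against 1111 and 1157 (49.0%) under normexp, 1720 and 1866 (48.0%) in the authors' table and 3556 and 3186 (52.7%) after quantile normalization, and the median of all genes moved between -0.01 and 0.29. With median scaling the split was 61.9%. Activin RAX+ minus activin RAX- had 3081 and 1764 (63.6% higher), against 661 and 1157 (36.4%) under normexp, 1364 and 2953 (31.6%) with median scaling and 6696 and 1806 with no floor. Eye minus diencephalon/hypothalamus had 3139 and 2268 (58.1%), against 1672 and 1530 (52.2%) under normexp and 2482 and 2696 (47.9%) with median scaling. In the other pairs except SAG RAX+ minus the Wi control, the share of called genes that were higher moved by over 10 percentage points under another scaling. With median scaling it was 40.1% for SAG RAX+ minus SAG RAX- (28.3% as reported), 70.0% for activin RAX- minus SAG RAX- (46.8%), 58.1% for activin RAX+ minus the Wi control (69.1%), 44.8% for SAG RAX- minus the Wi control (55.2%), 26.4% for eye minus cortex (61.6%) and 28.6% for diencephalon/hypothalamus minus cortex (53.2%). With the percentile over probes well above background on all arrays it was 38.1% for activin RAX- minus the Wi control (52.7%). Quantile normalization gave 48.9% for activin RAX+ minus eye (70.7%) and 46.1% for SAG RAX+ minus diencephalon/hypothalamus (59.6%). The cause was not tested. The mean of all probes equals the reported value because each member has 1 probe. No array could be left out and no paired analysis was possible because each group has 1 array and the labels give no replicate numbers. Slide as a block could not be fitted, since the Wi control is alone on its slide. Low signal over background limits the low levels of all 3 genes.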
